A study of Mus musculus with 13 samples.

Results

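The miR-23, miR-24 and miR-27 families were examined across 13 primary abdominal neuroblastomas of TH-MYCN mice. In these animals the tyrosine hydroxylase promoter drives human MYCN in cells of the sympathetic nervous system, which gives rise to spontaneous tumours. The family members were chosen by name as the 5 main mature forms, mmu-miR-23a-3p, mmu-miR-23b-3p, mmu-miR-24-3p, mmu-miR-27a-3p and mmu-miR-27b-3p (written without the mmu- prefix from here on), out of 1079 mouse miRNAs on the array. The tumours formed 2 groups that the labels call biological replicates. The first held 6 tumours with wild type caspase-8 from mice without metastasis to the bone marrow. The second held 7 tumours with deficient caspase-8 from mice in which such metastasis was present. Every tumour came from the TH-MYCN background, and genotype and metastasis changed together, so their parts in any difference cannot be told apart. The sources used here give neither the ages of the mice nor the cells in which caspase-8 was lost.

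Caspase-8 starts apoptosis downstream of death receptors. The miR-23, miR-27 and miR-24 hairpins are processed from shared primary transcripts, of which the mouse genome encodes a pair. The first carries Mir23a, Mir27a and Mir24-2 and the second Mir23b, Mir27b and Mir24-1, and MYC proteins are known to repress transcription of both. miR-23 is known for repressing glutaminase mRNA, which links MYC to glutamine use. miR-27 is known for repressing Sprouty2 and Semaphorin 6A in endothelium and PPARγ in fat cells. miR-24 is known for repressing cell-cycle genes such as E2F2.

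The mature sequences are shown with the seed, bases 2 to 8 from the 5′ end, in capitals, because the seed sets which mRNAs a miRNA can pair with and because the near-identity of the miR-27 forms bears on how their signals are read.
miR-23a-3p: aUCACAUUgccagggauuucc
miR-24-3p: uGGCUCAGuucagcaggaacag
miR-27a-3p: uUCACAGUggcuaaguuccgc
miR-27b-3p: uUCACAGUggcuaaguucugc
These sequences are from RefSeq (GRCm38.p6). miR-27a-3p and miR-27b-3p share their seed and differ by 1 substitution over 21 bases, C19U, with miR-27a-3p as the first base and positions counted from its 5′ end. How far the probes separate miR-27a-3p from miR-27b-3p, or miR-23a-3p from its paralogue miR-23b-3p, was not tested, so each signal could hold part of the other.

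The hairpins of the first transcript lie on the plus strand of chromosome 8, with Mir23a at chr8:84208518-84208592, Mir27a at chr8:84208672-84208758 and Mir24-2 at chr8:84208815-84208921 (GRCm38.p6). They span 404 bases and overlap no annotated gene apart from Mir3074-2, which overlaps Mir24-2. Those of the second lie on the plus strand of chromosome 13, with Mir23b at chr13:63300484-63300557, Mir27b at chr13:63300712-63300784 and Mir24-1 at chr13:63301208-63301275. These span 792 bases inside the gene Aopep, and Mir3074-1 overlaps Mir24-1. Both transcripts give miR-24-3p, so its signal cannot be divided between them.

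Each tumour had between 338 and 469 detected mouse miRNAs, and tests covered the 419 that were detected on 6 or more of the 13 arrays. All 5 neural markers (miR-124-3p, miR-9-5p, miR-7a-5p, miR-375-3p and miR-128-3p) were detected in every tumour. The arrays came from 2 slides. The wild-type tumours were split 2 to slide 1 and 4 to slide 2, and the deficient ones 5 to slide 1 and 2 to slide 2. Deficient replicate 2 stood apart for the 5 miRNAs, with the lowest level of all 13 tumours in each, and results that turn on it are also given without it.

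All 5 miRNAs were detected in all 13 tumours. Levels are log2 of the signal after scaling each array, with a floor of 4.1, and 1 unit is a doubling. Because probes differ in brightness, a level is compared between tumours and not between miRNAs. miR-23a-3p ranged from 9.13 to 10.7 in wild-type tumours with a median of 10.35, and from 8.75 to 10.41 in deficient tumours with a median of 9.89. Its highest levels were in wild-type replicates 6 and 3, and the groups overlapped over most of their range. miR-27a-3p, from the same transcript, ranged from 9.32 to 10.49 in wild-type tumours (median 9.78) and from 8.37 to 10.25 in deficient tumours (median 9.81). It was highest in the same wild-type pair as miR-23a-3p, in the opposite order. Between the lowest and highest tumour miR-23a-3p spanned 3.85-fold and miR-27a-3p 4.33-fold, the widest ranges of the 5.

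For the chromosome 13 transcript, miR-23b-3p lay at 9.20 to 10.44 in wild-type tumours (median 9.54) and at 8.77 to 9.76 in deficient tumours (median 9.58). miR-27b-3p lay at 8.76 to 9.63 in wild-type tumours (median 9.14) and at 8.36 to 9.23 in deficient tumours (median 9.04). Wild-type replicate 3 was highest for both, and the remaining tumours of the groups were interleaved. miR-27b-3p spanned 2.41-fold over the 13 tumours, the narrowest range of the 5, and miR-23b-3p spanned 3.18-fold. miR-24-3p, which both transcripts encode, was at 10.55 to 11.68 in wild-type tumours (median 10.74) and at 9.87 to 10.98 in deficient tumours (median 10.77), a span of 3.51-fold. Its highest value was again in wild-type replicate 3. Of all tested miRNAs, 56.3% had a smaller spread within groups than miR-23a-3p, 52.0% than miR-27a-3p, 36.5% than miR-24-3p, 33.9% than miR-23b-3p and 19.6% than miR-27b-3p. Each miRNA was read by 2 probes, whose levels correlated across the 13 tumours with r between 0.98 and 0.998.

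**Figure D1:**
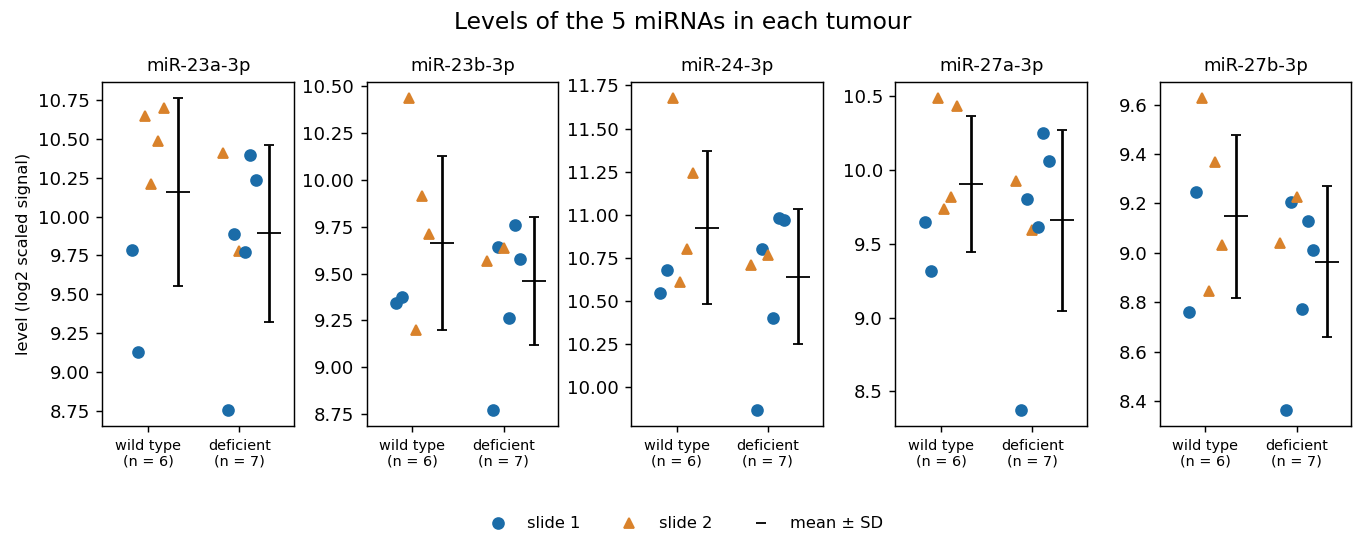
Level of each miRNA (y axis, log2 scaled signal, a separate scale per panel) in 6 wild-type and 7 deficient tumours, with circles for slide 1, triangles for slide 2 and the mean ± SD beside each group. The groups overlap in all 5 panels, and the lowest point of each is deficient replicate 2.

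The low value of miR-23a-3p in deficient replicate 2 depended on how spots were treated. In that tumour, 1 of the 20 spots of the first miR-23a-3p probe read 21800, and the scanner software had marked it as an outlier. The unmarked spots of that probe averaged 76.6 and reached 92.2. The second probe averaged 242 there, also a lower unmarked mean than in any other tumour. With marked spots left out, as in the values above, the tumour had the lowest miR-23a-3p level of the 13, at 8.75. With all spots averaged, the level was 10.76 and the highest of the 13. In the deposited series matrix, a table of log2 values that served as an alternative, this tumour was also the highest for miR-23a-3p, at 9.78. Across tumours the level from scanner files and the matrix value correlated with r = 0.449 for miR-23a-3p, and with 0.986 without deficient replicate 2. For the other 4 miRNAs r was 0.97 to 0.983 over all 13 tumours.

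**Figure D2:**
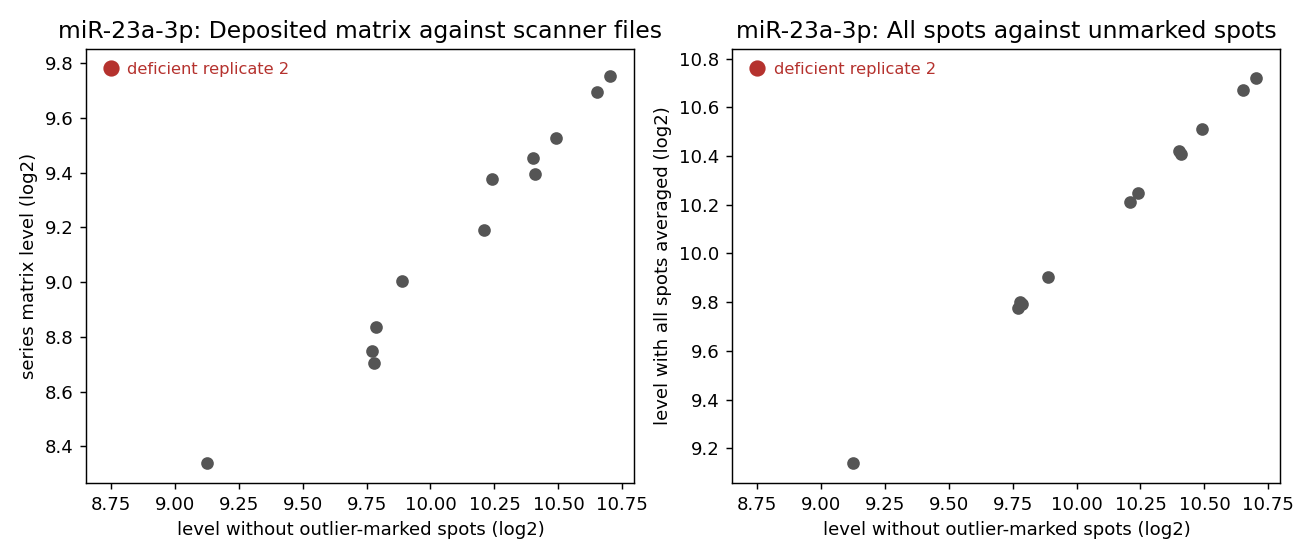
Level of miR-23a-3p without outlier-marked spots (x axes, log2) against the deposited series matrix (left y axis, log2) and against the level with all spots averaged (right y axis, log2), 1 point per tumour. In both panels 12 tumours follow a line, and deficient replicate 2 is lowest on the x axis at 8.75 and highest on the y axis, at 9.78 and 10.76.

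The first comparison asks whether these miRNAs differ between caspase-8-deficient tumours with metastasis and wild-type tumours without. None of the 5 passed the threshold: 0 of 5 had an adjusted p under 0.05 by limma, as did 0 of the 419 tested (0.0%), where 16 (3.82%) had an unadjusted p under 0.05. No other setting that was run gave a call for any of the 5. The groups overlapped for all 5 miRNAs, and for all but 1 of the tested miRNAs (0.239% did not overlap). The mean was lower in deficient tumours for all 5, a direction held by 45.8% of tested miRNAs. The median difference of the 5, deficient minus wild type, was −0.245, beside 0.0413 over all tested miRNAs. Since the levels of the 5 moved together across tumours, their shared direction is not 5 separate observations.

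On the chromosome 8 transcript, miR-23a-3p averaged 10.16 ± 0.61 in the wild-type group (SD, n = 6) and 9.89 ± 0.57 in the deficient group (SD, n = 7). The difference was −0.27 (SE 0.32, 95% interval −0.95 to 0.41, limma adjusted p = 0.752). miR-27a-3p was at 9.90 ± 0.46 (SD, n = 6) and 9.66 ± 0.62 (SD, n = 7), a difference of −0.24 (SE 0.30, 95% interval −0.88 to 0.39, limma adjusted p = 0.754). On the chromosome 13 transcript, miR-23b-3p was at 9.66 ± 0.46 (SD, n = 6) and 9.46 ± 0.34 (SD, n = 7), a difference of −0.20 (SE 0.23, limma adjusted p = 0.741). The 95% interval for miR-23b-3p ran from −0.70 to 0.30. miR-27b-3p, with the smallest difference, was at 9.15 ± 0.33 (SD, n = 6) and 8.96 ± 0.31 (SD, n = 7). It differed by −0.18 (SE 0.20, 95% interval −0.61 to 0.24, limma adjusted p = 0.729). miR-24-3p had the largest difference and the smallest p of the 5, with 10.93 ± 0.44 (SD, n = 6) and 10.64 ± 0.39 (SD, n = 7). It differed by −0.28 (SE 0.24, 95% interval −0.80 to 0.23, limma adjusted p = 0.668). Each difference was smaller than the SD within either group. Without deficient replicate 2, which was lowest for all 5, the differences were −0.0796 for miR-23a-3p, −0.0304 for miR-27a-3p, −0.0873 for miR-23b-3p, −0.083 for miR-27b-3p and −0.154 for miR-24-3p, and none passed.

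The direction was not the same on both slides. Within slide 2 all 5 means were lower in deficient tumours, as for 48.7% of tested miRNAs, with differences of −0.418 for miR-23a-3p, −0.360 for miR-27a-3p, −0.341 for miR-24-3p, −0.211 for miR-23b-3p and −0.087 for miR-27b-3p. Within slide 1 only miR-24-3p and miR-27b-3p were lower, by differences of −0.0101 and −0.107, where 54.7% of tested miRNAs were lower. On that slide miR-23a-3p was higher in deficient tumours by 0.353, miR-27a-3p by 0.14 and miR-23b-3p by 0.045. Slide 2 had the higher mean for all 5, for example 10.37 against 9.71 for miR-23a-3p and 10.97 against 10.61 for miR-24-3p, and it held most of the wild-type tumours. With slide as a block all 5 were lower, beside 45.3% of tested miRNAs, and nearer 0, at −0.0193 for miR-23a-3p, −0.0787 for miR-23b-3p, −0.170 for miR-24-3p, −0.101 for miR-27a-3p and −0.0973 for miR-27b-3p. Scaling moved all miRNAs: without it the median difference of all tested miRNAs was 0.218, that of the 5 was −0.0513, and 4 of the 5 remained lower, beside 26.7% of tested miRNAs. The exception was miR-27b-3p, at 0.0104.

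**Figure D3:**
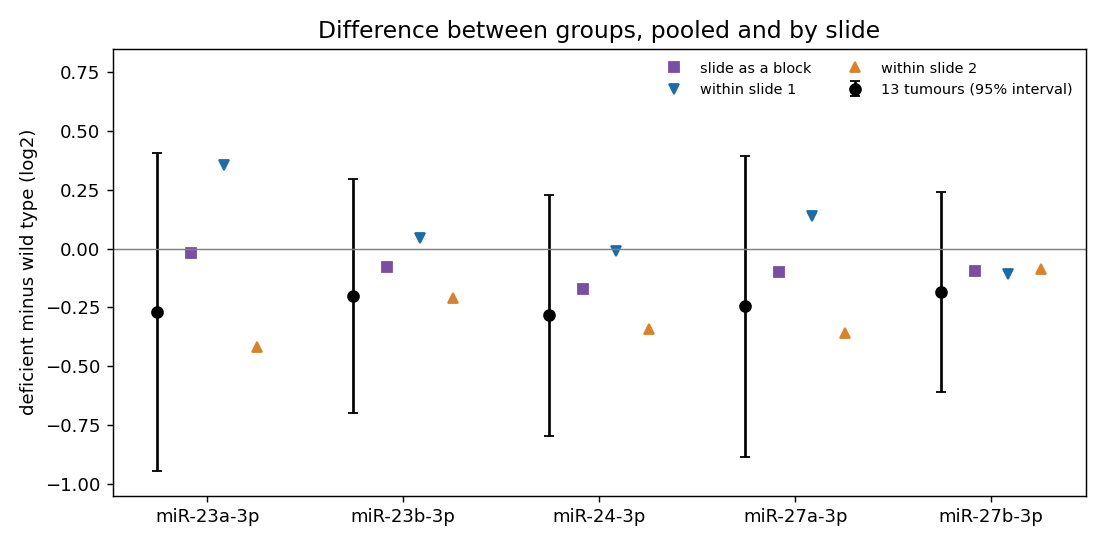
Difference between group means (y axis, deficient minus wild type, log2) of each miRNA over 13 tumours (black, with its 95% interval), in the fit with slide as a block, and inside each slide. All 5 intervals include 0, and the within-slide values have opposite signs for miR-23a-3p, miR-23b-3p and miR-27a-3p.

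The opposite arms of the hairpins, which are usually degraded after processing, were looked for as well. Of the 6 opposite arms and 3 miR-3074 forms on the array, only miR-23a-5p was detected, on 1 of 13 arrays, in wild-type replicate 4 at a level of 6.25. miR-23b-5p, miR-27a-5p, miR-27b-5p, miR-24-1-5p, miR-24-2-5p, miR-3074-5p, miR-3074-1-3p and miR-3074-2-3p were detected on 0 of 13 arrays. The miR-24 opposite arms are the only products on the array that could mark which hairpin miR-24-3p came from. They are shown because they share a seed, in capitals, and differ in the 3′ part.
miR-24-1-5p: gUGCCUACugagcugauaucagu
miR-24-2-5p: gUGCCUACugagcugaaacagu
As neither was detected, the signal of miR-24-3p was not assigned to either locus.

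The next question is how far the 5 miRNAs varied together from tumour to tumour. Pearson's r was positive for all 10 pairs and passed the threshold for 10 of 10 (100000 permutations, adjusted over the 10 pairs, largest adjusted p = 0.0465), and Spearman's rho passed for 8 of 10. Over all pairs of the 419 tested miRNAs, 11.0% had an r at or above the lowest of these 10, which was 0.565, and 1.17% had an r of at least 0.9. Among the 10 pairs 4 reached 0.9, or 40.0%. Correlations across tumours share the scaling of each array, and without scaling r was higher in every pair, between 0.862 and 0.971.

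Partners from 1 transcript were among the closest pairs. miR-23a-3p and miR-27a-3p correlated with r = 0.927 (permutation adjusted p = 0.00015) and rho = 0.934 (permutation adjusted p = 0.0003), with r = 0.962 in slide 1 and 0.846 in slide 2. In the series matrix, where deficient replicate 2 was highest for miR-23a-3p, the r of this pair was 0.15, and 0.83 without that tumour. There miR-23a-3p also had r = 0.171 with miR-23b-3p and 0.142 with miR-24-3p, and 0.568 and 0.625 without that tumour. miR-23b-3p and miR-27b-3p correlated with r = 0.913 (permutation adjusted p = 0.0002) and rho = 0.786 (permutation adjusted p = 0.0043), with r = 0.862 in slide 1 and 0.954 in slide 2. Without the 2 tumours farthest from the median of the first-named miRNA, r was 0.847 and 0.746. miR-24-3p followed both loci. Its r was 0.922 with miR-23b-3p, 0.907 with miR-27a-3p, 0.827 with miR-27b-3p and 0.79 with miR-23a-3p (permutation adjusted p = 0.00025, 0.00015, 0.00193 and 0.00193). The rho values were 0.918, 0.868, 0.648 and 0.819, with permutation adjusted p of 0.0004, 0.000933, 0.024 and 0.00272.

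The remaining 4 pairs join 1 form of each locus, without miR-24-3p, and their r of 0.565 to 0.817 overlapped that of the miR-24-3p pairs. The paralogues miR-23a-3p and miR-23b-3p had r = 0.757 (permutation adjusted p = 0.00286) and rho = 0.747 (permutation adjusted p = 0.00714), and miR-23b-3p and miR-27a-3p had r = 0.817 (permutation adjusted p = 0.00223) and rho = 0.742 (permutation adjusted p = 0.00714). The paralogues miR-27a-3p and miR-27b-3p, which differ by 1 base, had r = 0.666 (permutation adjusted p = 0.0199) and rho = 0.346 (permutation adjusted p = 0.248). miR-23a-3p and miR-27b-3p had the lowest r, 0.565 (permutation adjusted p = 0.0465), with rho = 0.412 (permutation adjusted p = 0.182). Without the 2 tumours farthest from the median of the first-named miRNA, r fell to −0.00702 for miR-27a-3p with miR-27b-3p and to 0.42 for miR-24-3p with miR-27b-3p. It was 0.506 for miR-23a-3p with miR-27b-3p, 0.55 for miR-23b-3p with miR-27a-3p, 0.631 for miR-23a-3p with miR-23b-3p, 0.7 for miR-23b-3p with miR-24-3p, 0.736 for miR-23a-3p with miR-24-3p and 0.812 for miR-24-3p with miR-27a-3p. Leaving out the farthest tumours narrows the range, so a lower r does not show that a relation rests on them. For miR-24-3p with miR-27b-3p, r stayed between 0.704 and 0.882 when each tumour was left out in turn. Without deficient replicate 2 alone, r was 0.338 for miR-27a-3p with miR-27b-3p (permutation adjusted p = 0.314) and 0.246 for miR-23a-3p with miR-27b-3p (permutation adjusted p = 0.442). The first call was also lost without wild-type replicate 3 (r = 0.585), and the second without any single one of wild-type replicates 1, 3 and 5 and deficient replicates 5, 6 and 7 (r = 0.487 to 0.573). Within slides the paralogue pairs had r = 0.866 and 0.497 for miR-23 and 0.705 and 0.388 for miR-27, in slides 1 and 2. Whether same-transcript pairs correlate more than the others was not tested.

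**Figure D4:**
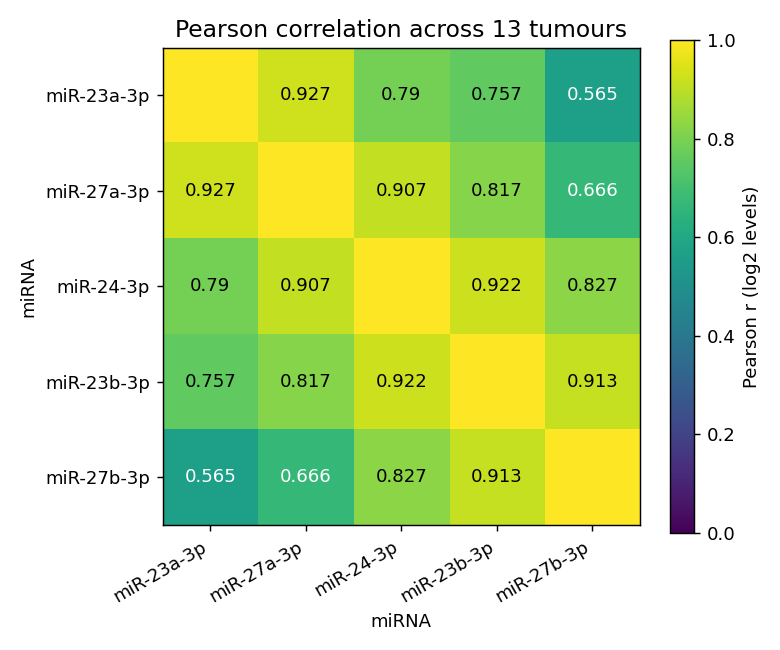
Pearson's r of log2 levels across 13 tumours for each pair of the 5 miRNAs (both axes), from 0 (dark) to 1 (yellow), ordered from the chromosome 8 forms through miR-24-3p to the chromosome 13 forms. Values are highest beside the diagonal, from 0.907 to 0.927, and lowest at the far corner, 0.565.

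The ratio between partners was compared between the groups next. It asks whether one locus, or one product of a locus, was favoured in either group. None of the 10 log2 ratios passed the threshold (exact permutation over 1716 splits, adjusted p = 0.949 to 0.952), and none did with slide as a block (315 splits, adjusted p = 0.984 for each). miR-23b-3p over miR-27b-3p averaged 0.515 ± 0.243 in the wild-type group (SD, n = 6) and 0.496 ± 0.0842 in the deficient group (SD, n = 7), which differ by −0.019 (exact permutation p = 0.854). miR-23a-3p over miR-27a-3p was 0.257 ± 0.297 (SD, n = 6) and 0.233 ± 0.145 (SD, n = 7), which differ by −0.0246 (exact permutation p = 0.843). The difference of spread between groups was not tested. For the paralogues, miR-23a-3p over miR-23b-3p differed by −0.0673 (exact permutation p = 0.76) and miR-27a-3p over miR-27b-3p by −0.0617 (exact permutation p = 0.795). Each of these 4 differences was smaller than the SD within groups, and each turned positive within slide 1.

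The ratio of chromosome 8 to chromosome 13 forms varied widely among tumours, and the miR-23 and miR-27 pairs gave it separately. This comparison was added after seeing the data. miR-23a-3p minus miR-23b-3p, on the log2 scale, ranged from −0.245 in wild-type replicate 2 to 1.01 in wild-type replicate 4. It was −0.0175 in deficient replicate 2 and 0.843 in deficient replicate 1, the lowest and highest of that group. miR-27a-3p minus miR-27b-3p ranged from 0.00941 in deficient replicate 2 to 1.4 in wild-type replicate 6, and wild-type replicate 2 had the next lowest value, 0.0688. The same 2 tumours were thus lowest by both ratios. Their arrays also had the fewest detected miRNAs of the 13, 338 in wild-type replicate 2 and 375 in deficient replicate 2. Their 75th percentiles before scaling were the lowest as well, at 850.917 and 999.81. Whether array signal bears on the ratios was not tested. The ratios correlated with r = 0.818 (permutation p = 0.00052) and rho = 0.819 (permutation p = 0.00109), and with r = 0.646 without the 2 tumours farthest from the median of the miR-23 ratio. Within groups r was 0.768 in wild-type (n = 6) and 0.908 in deficient tumours (n = 7), and within slides it was 0.967 (n = 7) and 0.664 (n = 6). It stayed between 0.754 and 0.858 when each tumour was left out in turn. In the series matrix r was 0.0298, and 0.789 there without deficient replicate 2. With outlier-marked spots kept it was −0.0115.

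Markers of other cell types were set beside these ratios, since a tumour piece can hold vessels, connective tissue and blood. In whole tumour RNA, fewer cells of a type and less RNA per cell cannot be told apart. Of the 14 relations of the 2 ratios with 7 marker lists, 2 passed by Pearson's r and 0 by Spearman's rho. Like the correlation of the ratios, these 14 were not planned, and p was adjusted over the 14 alone. Both relations that passed were with the stroma list, 5 miRNAs of connective tissue cells (miR-199a-3p, miR-199a-5p, miR-199b-5p, miR-214-3p and miR-152-3p). Against the list's mean level, r was 0.767 for the miR-23 ratio (permutation adjusted p = 0.0204) and 0.757 for the miR-27 ratio (permutation adjusted p = 0.0204), and rho was 0.703 and 0.654 (permutation adjusted p = 0.0626 for both). Without the 2 tumours farthest from the median on the ratio, r was 0.594 and 0.526. The list's mean was lowest in deficient replicate 2 (6.91) and wild-type replicate 2 (7.04), the tumours with the lowest ratios and the weakest arrays. Whether array signal bears on this relation was not tested. Within slides r was 0.855 and 0.628 for the miR-23 ratio, and 0.898 and 0.512 for the miR-27 ratio. Without wild-type replicate 2, wild-type replicate 6 or deficient replicate 2, r was 0.712, 0.712 and 0.721 for the miR-23 ratio and 0.701, 0.68 and 0.674 for the miR-27 ratio. These were near the values over 13 tumours, and none passed (permutation adjusted p = 0.0713 to 0.112). The miR-27 ratio had r = 0.73 without deficient replicate 6 (permutation adjusted p = 0.0518). In the series matrix r was −0.155 for the miR-23 ratio and 0.687 for the miR-27 ratio.

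The stroma list had 3 of its 5 members detected on all arrays and none undetected on all. Its summed level was 10.2 to 11.4 in wild-type and 10.1 to 11.3 in deficient tumours on the log2 scale, so the groups overlapped almost fully. By miRNA, the chromosome 8 forms had the higher correlations with this list, r = 0.709 for miR-23a-3p and 0.659 for miR-27a-3p, against 0.381 for miR-24-3p, 0.3 for miR-23b-3p and 0.154 for miR-27b-3p. In the same order rho was 0.654 and 0.643, against 0.577, 0.5 and 0.121. Within slides 1 and 2 r was 0.969 and 0.178 for miR-23a-3p, and 0.906 and 0.0629 for miR-27a-3p. Over 13 tumours none of these relations passed, as 0 of 35 relations of the 5 miRNAs with the 7 lists did (permutation, smallest adjusted p of r = 0.191). The leukocyte list, with 2 of 5 members detected on all arrays and a summed level of 9.38 to 12.2 in wild-type and 9.7 to 12 in deficient tumours, had r = 0.658 with the miR-23 ratio (permutation adjusted p = 0.0666) and 0.313 with the miR-27 ratio. The leukocyte rho with the miR-23 ratio was 0.736, beside 0.703 for the stroma list (permutation adjusted p = 0.0626 for both). The smooth muscle list (arms of miR-143 and miR-145, 2 of 4 detected on no array) had r = 0.52 and 0.568 with the miR-23 and miR-27 ratios. The endothelium list (miR-126-3p and miR-126-5p) had 0.535 and 0.536, and neither list passed (permutation adjusted p = 0.136 to 0.138). The smooth muscle rho with the miR-27 ratio was 0.654, as for the stroma list. Whether connective tissue, vessel or blood cells take part in the ratios was not tested.

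**Figure D5:**
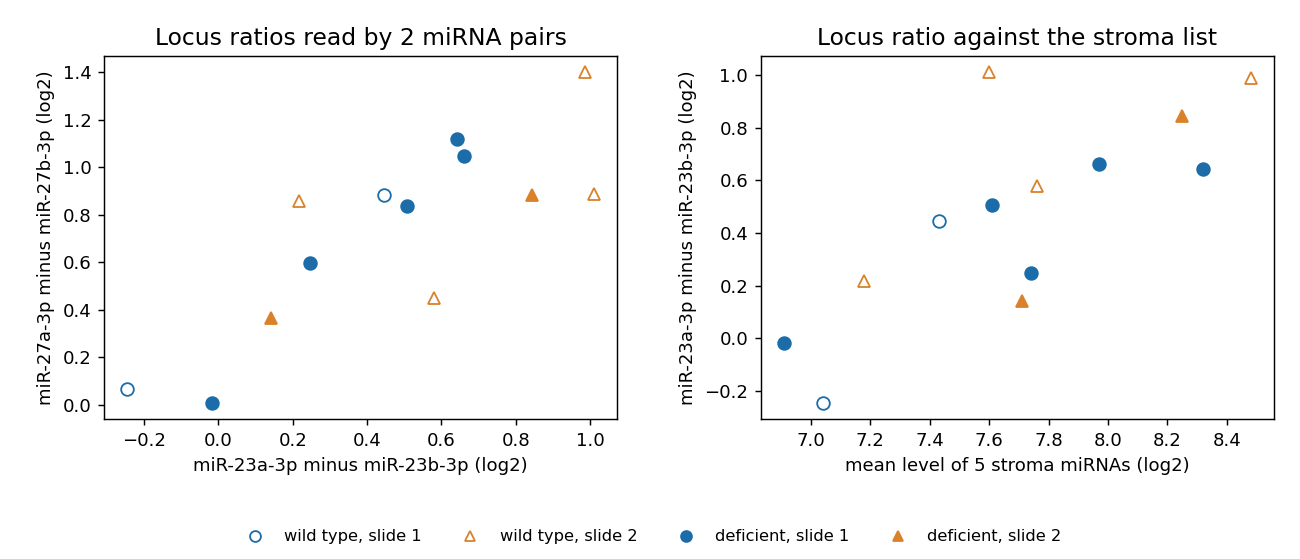
Left, miR-27a-3p minus miR-27b-3p (y axis, log2) against miR-23a-3p minus miR-23b-3p (x axis, log2). Right, the miR-23 difference (y axis, log2) against the mean level of 5 stroma miRNAs (x axis, log2). Open symbols are 6 wild-type and filled symbols 7 deficient tumours, circles slide 1 and triangles slide 2; both relations slope upward, with r = 0.818 and 0.767, and the groups are interleaved.

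The tested miRNAs whose levels were most like each of the 5 across 13 tumours were then named by Pearson's r, leaving out the forms of these families. For miR-23a-3p they were miR-139-5p (r = 0.929), miR-29a-3p (0.918), miR-30b-5p (0.846), miR-214-3p (0.816) and miR-30c-5p (0.805). For miR-27a-3p they were miR-139-5p (0.878), miR-322-5p (0.859), miR-30b-5p (0.789), miR-29a-3p (0.778) and miR-30c-5p (0.763), of which 4 were also on the list of miR-23a-3p. With normexp background the r of miR-139-5p turned negative, to −0.105 with miR-23a-3p and −0.117 with miR-27a-3p. The lists of the chromosome 13 forms held other miRNAs, apart from miR-30c-5p, which was also on that of miR-23b-3p. For miR-23b-3p they were miR-344d-3p (0.872), miR-30c-5p (0.841), miR-101c (0.811), miR-148b-3p (0.797) and miR-344b-3p (0.79). For miR-27b-3p they were miR-344d-3p (0.824), miR-350-3p (0.762), miR-335-3p (0.74), miR-1983 (0.711) and miR-181a-5p (0.71). miR-24-3p was nearest to miR-344d-3p (0.897), miR-148b-3p (0.801), miR-101c (0.777), miR-29c-3p (0.759) and miR-30c-5p (0.746).

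The lowest r were −0.824 with miR-714 and −0.762 with miR-370-3p for miR-23a-3p, and −0.861 with miR-714 and −0.841 with miR-328-5p for miR-27a-3p. They were −0.816 with miR-125a-3p and −0.797 with miR-3960 for miR-23b-3p, and −0.895 and −0.887 with the same miRNAs for miR-24-3p. For miR-27b-3p they were −0.809 with miR-452-5p and −0.75 with miR-5113. The median r over the other 414 tested miRNAs was between −0.0744 and 0.092. Among those 414, none had a higher r with miR-23b-3p than miR-24-3p or miR-27b-3p had, and 1 had a higher r with miR-23a-3p than miR-27a-3p had. Other members ranked lower. Placed among those 414, miR-23b-3p ranked 15 and miR-27b-3p 40 for miR-23a-3p, and miR-27b-3p ranked 16 for miR-27a-3p. For miR-27b-3p, miR-27a-3p ranked 10 and miR-23a-3p 27. Within slides the r values moved, for example 0.876 and 0.256 for miR-214-3p with miR-23a-3p, and −0.837 and 0.0625 for miR-370-3p.

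Other miRNAs of the same 2 settings were read beside the 5. Of 15 other miRNAs known to be repressed by MYC, 14 were tested, and 6 had a higher and 8 a lower mean in deficient tumours, with a median difference of −0.0287 and 0 past the limma threshold. Over all tested miRNAs 45.8% were lower and the median was 0.0413. With slide as a block 5 of the 14 were lower (median 0.108), beside 45.3% of all tested. Within slides 1 and 2 the list had 4 and 5 lower, beside 54.7% and 48.7%. Without scaling it had 4 lower, beside 26.7%. miR-15a-5p, which restrains cell-cycle and survival genes, was highest with a difference of 0.21 (SE 0.22, limma adjusted p = 0.729). miR-29b-3p, which represses collagen mRNAs, was lowest with −0.86 (SE 0.35, limma adjusted p = 0.589), and −0.167 and −1.04 within slides 1 and 2. Of 8 miRNAs of vessels and angiogenesis, 7 were tested, and 5 had a higher and 2 a lower mean, with a median difference of 0.221 and 0 past the limma threshold. The share lower over all tested miRNAs was again 45.8%. With slide as a block 1 of the 7 was lower, beside 45.3% of all tested. miR-145-5p, abundant in smooth muscle, was highest with 0.70 (SE 0.28, limma adjusted p = 0.589), and miR-210-3p, which hypoxia induces, was lowest with −0.55 (SE 0.51, limma adjusted p = 0.672). The difference of miR-145-5p was 0.00935 with 4 times the floor and 0.0318 with normexp background. Within slide 1 the difference of miR-210-3p was 0.169. Over 13 tumours neither list had 1 direction throughout, whereas the 5 miRNAs did, but the 5 come from 2 shared transcripts. Within slide 1 only 2 of the 5 were lower. Among the 8 lower miRNAs of the MYC list were miR-29a-3p, miR-29b-3p and miR-29c-3p, with differences of −0.519, −0.864 and −0.531. With slide as a block these were −0.202, −0.587 and −0.308, and within slide 1 they were 0.181, −0.167 and −0.281. The rest of the 8 lay between −0.306 for miR-146a-5p and −0.02 for let-7a-5p. The difference between lists was not tested.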

How the data were processed

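RNA of 13 tumours was labelled with Cy3 and hybridised to 1-colour Agilent mouse miRNA arrays, per the labels' protocols. The deposited scanner files gave each spot's linear intensity after background subtraction and detrending, per the file headers. Feature Extraction is version 10.7.3.1 per the file headers and 10.5.1.1 per the submitters' processing notes. Other deposited columns were yes or no marks for detection, saturation and outliers. No spot was saturated. The deposited series matrix held log2 values with equal distributions (column median 3.82, sorted columns within 0.00219). Its columns matched their own arrays, and the sources used here do not give its background step or probe summary.

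Each array had 47604 spots, of which 2164 controls were left out. Unmarked spots were averaged per probe and probes summed per miRNA. Sums were scaled to the array's 75th percentile over the 294 miRNAs detected on all arrays, floored at 17.2 and converted to log2. These percentiles were 851 to 1928.66 before scaling. The 419 miRNAs with detection on 6 or more arrays entered two-sided limma 3.58.1 fits (R 4.3.3, with data.table, version 1.17.8), called at a Benjamini-Hochberg adjusted p under 0.05. The fit was tested on simulated data. Ratios were tested two-sided by exact permutation, correlations by 100000 two-sided permutations (all orders within slides), in Python 3.11.15 with scipy 1.17.1. The number of arrays limits the precision, and the labels do not say how the biological replicates were separated.

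Members, lists and tests were chosen with earlier results of these data known. Named miRNAs were the 5 members, their opposite arms and miR-3074 forms, the tested members of 2 related lists with the highest and lowest difference, and the 5 nearest and 2 farthest miRNAs by r. Alternatives covered scaling, background, filter, floor, probe summary, slide, array weights, the series matrix, replicate number and leaving out each tumour. Mature miR-23b-3p was named only.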

Additional observations from a re-analysis of the deposited data

Results flagged for a closer look

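Of 40 groups of values examined for a tumour far from the rest of its group, 6 held one, where chance alone gives about 1 in 20. The groups are not independent, since the members moved together and the same tumour recurs, so the count was not tested against that rate. Deficient replicate 2 was the lowest of its group for miR-23a-3p, at 8.75 against 9.77 for the next tumour, and for miR-27a-3p, at 8.37 against 9.59. It was also lowest for the mean of the endothelium list, miR-126-3p and miR-126-5p, at 7.23 against 8.35. The mean of the neural list was lowest in wild-type replicate 4, at 9.23 against 9.84, and among deficient tumours in deficient replicate 3, at 9.19 against 9.65. The mean of the erythroid list, miR-451 and miR-144-3p, was highest in deficient replicate 1, at 13.5 against 12.3. The causes were not tested.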

How the results depend on the processing

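No difference of the 5 miRNAs and none of their 10 ratios passed the threshold under any alternative run, which at this number of arrays does not show that the groups are alike. Directions were not stable. The difference of miR-23a-3p was 0.0153 with outlier-marked spots kept, 0.353 within slide 1 and 0.0805 with array weights, that of miR-23b-3p 0.045 and 0.00755 with the latter 2, that of miR-27a-3p 0.14 and 0.098, and that of miR-210-3p 0.169 and 0.225. Without scaling that of miR-27b-3p was 0.0104. In the series matrix, with spots kept, with slide as a block and within slide 1, the ratio difference was 0.214, 0.241, 0.0594 and 0.308 for miR-23a-3p over miR-23b-3p, and 0.258, 0.284, 0.082 and 0.213 for miR-23a-3p over miR-27a-3p. It was 0.0186 and 0.152 for miR-23b-3p over miR-27b-3p in the last 2 of these. For miR-27a-3p over miR-27b-3p it was 0.0313 in the matrix without deficient replicate 2 and 0.247 within slide 1. The causes were not tested.

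Of the 10 pair correlations, 6 passed in the series matrix, 6 with spots kept and 0 within slide 2, where n was 6. That of miR-23a-3p with miR-27b-3p was −0.0838 in the matrix and −0.085 with spots kept. The correlation of the locus ratios was 0.0298 in the matrix, −0.0115 with spots kept and 0.664 within slide 2. That of the miR-23 ratio with the stroma list was −0.155 and −0.063 in the first 2 of these. Both the matrix and the setting with spots kept put deficient replicate 2 highest for miR-23a-3p, so they are not 2 separate observations. Of the 35 relations with marker lists, 17 passed without scaling and 4 within slide 1. With normexp background the r of miR-139-5p was −0.105 with miR-23a-3p and −0.117 with miR-27a-3p, and that of miR-148b-3p with miR-24-3p was −0.0119. The r of miR-370-3p with miR-23a-3p was 0.0625 within slide 2.

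Leaving out 1 tumour at a time gave differences of −0.476 to −0.0796 for miR-23a-3p, −0.295 to −0.0471 for miR-23b-3p, −0.359 to −0.133 for miR-24-3p, −0.363 to −0.0304 for miR-27a-3p and −0.26 to −0.083 for miR-27b-3p. The ratio differences ran from −0.216 to 0.0356 (miR-23a-3p over miR-23b-3p), −0.113 to 0.0588 (miR-23a-3p over miR-27a-3p), −0.0968 to 0.0399 (miR-23b-3p over miR-27b-3p) and −0.199 to 0.0659 (miR-27a-3p over miR-27b-3p). Between 8 and 10 of the 10 pair correlations passed, and 0 to 6 of the 35 relations with marker lists, with 6 without wild-type replicate 3.

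Replicate numbers are shared by the groups, and the labels do not say whether they pair the tumours. Deviations of same-numbered tumours correlated between −0.22 and 0.194, which cannot settle this. With the replicate number as a block the differences were −0.327 for miR-23a-3p, −0.222 for miR-23b-3p, −0.337 for miR-24-3p, −0.312 for miR-27a-3p and −0.191 for miR-27b-3p, and 0 miRNAs passed. With this block, 2 of the 35 relations with marker lists passed, and the r with the stroma list was 0.412 for the miR-23 ratio and −0.128 for the miR-27 ratio, and neither passed.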

Other observations

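The scanner files and the deposited series matrix ordered the tumours alike for most miRNAs. For this comparison the scanner values were quantile normalized, which gives every array the same distribution. Over the 294 miRNAs detected on all arrays, the median r between these values and the matrix across 13 tumours was 0.988, and 8 had an r below 0.8. miR-23a-3p had the third lowest. For the 12 tumours other than deficient replicate 2, its scanner level, scaled to the 75th percentile, minus its matrix value was 0.79 to 1.08. In deficient replicate 2 it was −1.03 with marked spots left out. With all spots averaged that tumour's level was 10.76, the highest of the 13, as in the matrix. Which spots the matrix used for deficient replicate 2 is not given in the sources used here.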
